A study of Mus musculus and Homo sapiens with 12 samples.

Results

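Amino acid transporters are membrane proteins that carry amino acids into and out of cells. The genes described here are 8 widely expressed members of this class, found by their symbols in the deposited tables: Slc7a5, Slc3a2, Slc1a5, Slc38a2, Slc38a1, Slc7a1, Slc7a6 and Slc1a4. All 8 were present among 10430 mouse genes and, in human spelling, among 11513 human genes. Their mRNA was measured by RNA sequencing in 12 libraries from T-ALL, acute lymphoblastic leukaemia of the T-cell lineage, an aggressive cancer often driven by the receptor NOTCH1. The mouse libraries came from C57BL/6 mice given secondary transplants of NOTCH-delta E tumours, which all 4 diet groups carried; the name stands for a NOTCH without most of its outer part. For 3 weeks the mice ate a diet with 0, 0.4, 0.8 or 8 g/kg of valine, the last being the control, and GFP-positive leukaemic cells were then sorted from spleen. Each diet had 1 library named TALL2 and 1 named TALL3, and neither the meaning of these names nor the age or number of mice per library is given in the labels. The treatment protocol also places the 0.8 and 0.4 amounts in drinking water (g/L) beside a valine-deficient diet, so the diets are used only in their order. The human libraries came from 1 cell line, KOPTK1, grown for 72 h with Compound E, an inhibitor of gamma-secretase (gSI) that blocks the release of active NOTCH1, or with its carrier DMSO, 2 libraries each.

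Valine is an essential branched-chain amino acid, so cells depend on transport for it. Its main route into dividing cells is LAT1, the exchanger encoded by Slc7a5, which works only when bound to the heavy chain 4F2hc (CD98), encoded by Slc3a2. LAT1 trades an amino acid already inside the cell, often glutamine, for leucine, isoleucine, valine or another large neutral amino acid outside, and sodium-driven carriers such as those of Slc1a5, Slc38a1 and Slc38a2 keep the inner pool filled. When amino acids run short, the kinase GCN2 slows protein synthesis and raises translation of ATF4, a transcription factor known to induce several transporter genes. MYC, a growth regulator downstream of NOTCH1 in T-ALL, is also known to induce some of them.

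Values are deposited FPKM, read numbers scaled to gene length and to the size of the library. Fold changes were computed on log2(FPKM + 1), so those of low genes come out too small. Reads recovered from the steps between FPKM values numbered 14222895 to 37687253 per mouse library and 22939478 to 42245079 per KOPTK1 library. All 8 genes had a mean of at least 1 FPKM in both tables and were tested, with 9943 mouse and 6679 human genes in all. The sorted cells carried T-lineage markers at similar sums in every diet (3432 to 4317 FPKM over 12 listed markers). Most of each sum was Tcf7, Thy1 and Lck. Single markers differed. On 0 g/kg 3 of the 12 lay below both controls (2279 of 9943 tested genes did) and 1 lay above both (1901 of 9943). Cd4 had 2.90 FPKM in TALL2 and 87.2 in TALL3 on 0 g/kg, and 4.91 and 13.5 on 8 g/kg. Other markers moved with the diet. Given as TALL2 before TALL3, here and below, the sum of 13 listed neutrophil markers was 568 and 341 FPKM on 0 g/kg, 12.9 and 77.4 on 0.4 g/kg, 14.2 and 12.4 on 0.8 g/kg, and 0.912 and 10.6 on 8 g/kg. The sum of 7 listed erythroid markers was 0.902 and 3.33 FPKM on 0 g/kg, 49.1 and 32.7 on 0.4 g/kg, 37.4 and 24.4 on 0.8 g/kg, and 94.9 and 250 on 8 g/kg. Neutrophil markers were thus highest, and erythroid markers lowest, in the libraries without dietary valine. Of the B-cell list 1 of 8 markers was listed, with 11.5 and 73.0 FPKM on 0 g/kg and 1.498 and 13.7 FPKM on 8 g/kg. The 5 listed macrophage markers of 9 summed to 37.6 and 36.5 FPKM on 0 g/kg, against 7.54 and 16.7 FPKM on 8 g/kg. Most of this was Lyz2, with 26.7 and 20.9 FPKM on 0 g/kg and 0.140 and 1.47 FPKM on 8 g/kg. Only 2 of the 5 were higher with no overlap (19.1% of all tested genes). Of 5 natural killer markers 2 were listed. Nkg7 had 12.2 and 31.9 FPKM on 0 g/kg and 2.92 and 5.41 FPKM on 8 g/kg, and Gzma overlapped. The part of these cells in the transporter values was not tested. In bulk RNA, a change in the share of cells of a type and a change in RNA per cell cannot be told apart.

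In leukaemic cells of mice fed no valine, the mean of every one of the 8 transporter mRNAs lay above that of mice on the control diet (47.8% of all tested genes did), by very unequal amounts. LAT1 (Slc7a5), its heavy chain (Slc3a2), the neutral carriers Slc1a5, Slc38a2 and Slc1a4 and the arginine carrier Slc7a1 were 1.32 to 2.27 times as high in FPKM + 1, and Slc38a1 and Slc7a6 were 1.05 and 1.04 times as high. None of the 8 passed the test: limma called 0 of 9943 genes at an adjusted p of 0.05 (0%), with 1025 genes (10.3%) at an unadjusted p under 0.05, and voom on the recovered reads called 0 as well. The values of this comparison are therefore measurements that did not pass, and the 95% intervals beside them are those of single genes. In 7 of the 8 genes both libraries on 0 g/kg lay above both controls, whereas 19.1% of all tested genes did so. In 5 of the 8 the unadjusted p was under 0.05 with a higher level, against 4.79% of all tested genes. The median log2 fold change was 0.47 over the 8 genes and -0.013 over all tested genes. The genes were chosen with earlier results of these data known, so these counts describe them and are no test of the group.

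Slc7a5, the light chain of LAT1, was the most abundant of the 8 on average. The gene (ENSMUSG00000040010; GRCm38 chromosome 8, 121881150 to 121907694, minus strand) had 137 and 149 FPKM on 0 g/kg, 132 and 107 on 0.4 g/kg, 79.0 and 132 on 0.8 g/kg, and 93.4 and 89.7 on 8 g/kg. The valine-free libraries were the highest of the 8, and the TALL2 library on 0.4 g/kg and the TALL3 library on 0.8 g/kg came close to them, while the TALL2 library on 0.8 g/kg was the lowest. Against the control diet the log2 fold change on 0 g/kg was 0.64 (SE 0.238, 95% interval 0.056 to 1.22, adjusted p = 0.463). The annotated gene Gm20388 spans Slc7a5 on the opposite strand, and the counting's use of strand is not stated.

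Its partner followed a like course. Slc3a2 (ENSMUSG00000010095; chromosome 19, 8706882 to 8723369, minus strand) encodes the heavy chain that brings LAT1 and several other light chains to the cell surface. It had 89.9 and 119 FPKM on 0 g/kg, 76.8 and 82.9 on 0.4 g/kg, 60.97 and 83.0 on 0.8 g/kg, and 66.03 and 61.4 on 8 g/kg. Both libraries of the 2 lowest valine diets lay above both controls, and the 0.8 g/kg libraries lay on either side of them. On 0 g/kg the log2 fold change was 0.69 (SE 0.187, 95% interval 0.24 to 1.14, adjusted p = 0.373).

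Slc7a6 encodes another light chain of the same heavy chain, y+LAT2, which exchanges arginine and lysine for neutral amino acids. Unlike the levels of Slc7a5 and Slc3a2, those of Slc7a6 (ENSMUSG00000031904; chromosome 8, 106168857 to 106198706, plus strand) stayed within a narrow band, from 39.1 to 43.8 FPKM over all 8 libraries. It averaged 41.5 ± 0.516 FPKM on 0 g/kg and 40.02 ± 1.36 FPKM on 8 g/kg (SD, n = 2 each). The log2 fold change on 0 g/kg was 0.051, with a 95% interval of -0.14 to 0.24 (adjusted p = 0.862). Whether Slc7a5 and Slc7a6 differ in their change was not tested.

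Slc1a5 encodes ASCT2, a sodium-dependent exchanger of glutamine, serine and other small neutral amino acids. This gene (ENSMUSG00000001918; chromosome 7, 16781340 to 16798274, plus strand) was the only one of the 8 whose diet means could be ordered with no overlap between neighbours. It had 114 and 124 FPKM on 0 g/kg, 97.0 and 93.2 on 0.4 g/kg, 89.5 and 92.2 on 0.8 g/kg, and 87.1 and 88.2 on 8 g/kg. Each diet with less valine thus lay above the next, the largest step being between 0.4 and 0 g/kg. The other steps were within counting error in the nearest libraries (exact Poisson, 95%). The intervals were 90.5 to 95.9 FPKM (TALL3, 0.4 g/kg) against 90.0 to 94.4 FPKM (TALL3, 0.8 g/kg). They were 86.8 to 92.3 FPKM (TALL2, 0.8 g/kg) against 85.6 to 91.0 FPKM (TALL3, 8 g/kg). How many of all tested genes could be ordered in this way was not counted. On 0 g/kg the log2 fold change was 0.44 (SE 0.0779, 95% interval 0.25 to 0.63, unadjusted p = 0.00127 in limma, adjusted p = 0.222), rank 57 of 9943 genes by p.

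The related exchanger ASCT1, encoded by Slc1a4 (ENSMUSG00000020142; chromosome 11, 20302180 to 20332713, minus strand), carries alanine, serine and cysteine. Its FPKM was the lowest of the 8, and it had the largest relative difference. It had 4.43 and 7.08 FPKM on 0 g/kg, 3.83 and 2.74 on 0.4 g/kg, 2.25 and 6.34 on 0.8 g/kg, and 1.61 and 2.24 on 8 g/kg. Every restricted library lay above both controls, although the TALL2 library on 0.8 g/kg did so by less than the counting error. These values rest on 336 and 402 reads on 0 g/kg and 138 and 146 reads on 8 g/kg, which give counting intervals of 3.97 to 4.93 and 6.41 to 7.81 FPKM on 0 g/kg and of 1.36 to 1.91 and 1.90 to 2.64 FPKM on 8 g/kg (exact Poisson, 95%, counting error only). The log2 fold change on 0 g/kg was 1.19 (SE 0.416, 95% interval 0.17 to 2.20, adjusted p = 0.440). It was 0.62 with a pseudocount of 5 FPKM and reached 1.56 under another alternative.

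The sodium-coupled carriers SNAT2 and SNAT1 take up glutamine, alanine and other small neutral amino acids, and their genes Slc38a2 (ENSMUSG00000022462; 96687392 to 96699730) and Slc38a1 (ENSMUSG00000023169; 96571418 to 96642913) lie near each other on the minus strand of chromosome 15. Slc38a2, known as the carrier that adapts to amino acid shortage, had 64.9 and 93.7 FPKM on 0 g/kg, 49.0 and 63.3 on 0.4 g/kg, 52.9 and 57.3 on 0.8 g/kg, and 53.4 and 55.7 on 8 g/kg. Only the valine-free libraries stood above all the others, and the 2 partly restricted diets overlapped the control. The nearest libraries were within counting error (exact Poisson, 95%). Their intervals were 63.2 to 66.5 FPKM (TALL2, 0 g/kg) and 61.6 to 65.1 FPKM (TALL3, 0.4 g/kg). Its log2 fold change was 0.51 on 0 g/kg (SE 0.197, 95% interval 0.028 to 0.99, adjusted p = 0.473), and it was 0.25 without the TALL3 library on 0 g/kg and 0.77 without the TALL2 library.

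Slc38a1 split by library name and not by diet. It had 98.3, 98.2, 103 and 96.5 FPKM in the TALL2 libraries on 0, 0.4, 0.8 and 8 g/kg, and 84.5, 85.9, 87.8 and 77.3 FPKM in the TALL3 libraries of the same diets. The TALL2 library was the higher one in all 4 diets, and the diets overlapped. Its log2 fold change on 0 g/kg was 0.076 (95% interval -0.29 to 0.45, adjusted p = 0.893).

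Slc7a1 encodes CAT1, the main carrier of arginine, lysine and ornithine in many cells. The gene (ENSMUSG00000041313; chromosome 5, 148327410 to 148399904, minus strand) had 41.7 and 63.5 FPKM on 0 g/kg, 46.6 and 42.5 on 0.4 g/kg, 39.1 and 54.4 on 0.8 g/kg, and 38.2 and 39.2 on 8 g/kg. The TALL3 libraries on 0 and 0.8 g/kg were the highest, while the TALL2 libraries of these diets were close to the control. The log2 fold change on 0 g/kg was 0.40 (95% interval -0.16 to 0.96, adjusted p = 0.580), and it was 0.10 without the TALL3 library on 0 g/kg and 0.70 without the TALL2 library.

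**Figure D1:**
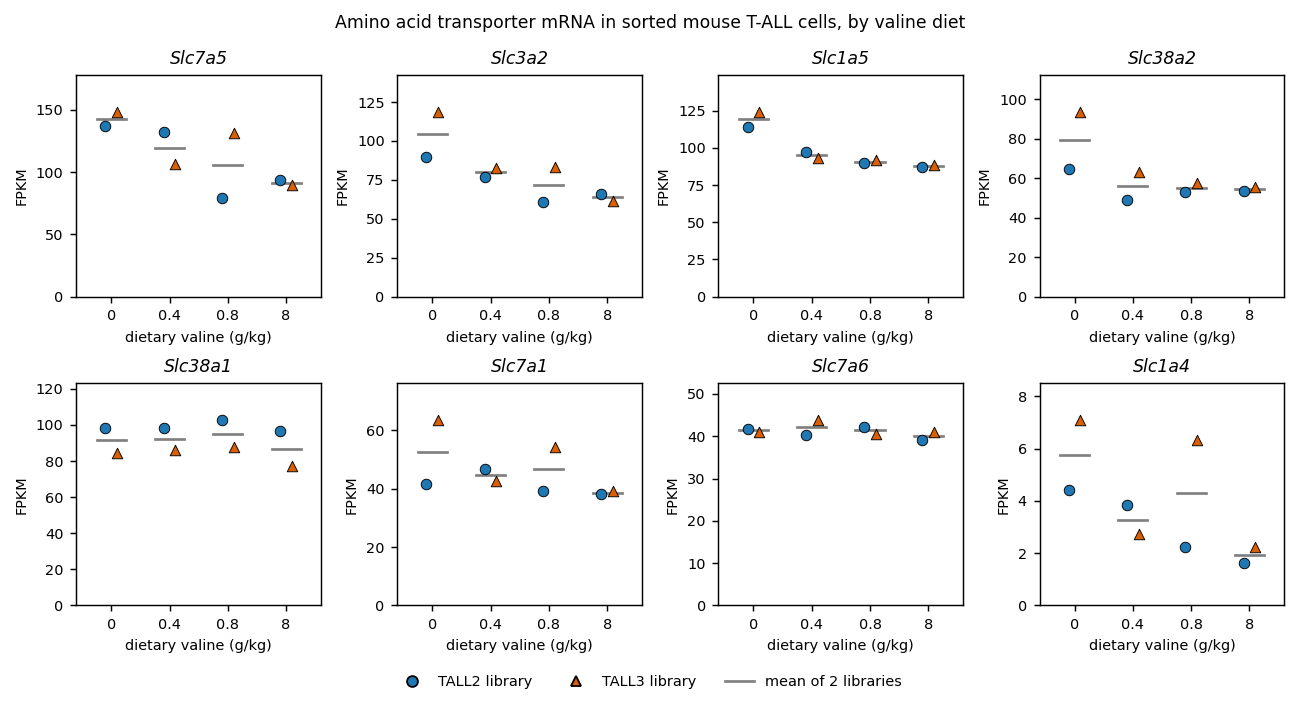
FPKM of the 8 transporters in sorted mouse T-ALL cells, by dietary valine (0, 0.4, 0.8 and 8 g/kg), with circles for TALL2 libraries, triangles for TALL3 libraries and a bar at the mean of 2 libraries. Slc1a5 steps down from 114 and 124 FPKM on 0 g/kg to 87.1 and 88.2 FPKM on 8 g/kg with no overlap between diets. Its steps between 0.4, 0.8 and 8 g/kg are within counting error in the nearest libraries. Slc7a6 stays between 39.1 and 43.8 FPKM, and Slc38a1 is higher in the TALL2 library of every diet.

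The partly restricted diets were compared with the control in the same fit. On 0.4 g/kg the means of all 8 genes were above the control (41% of all tested genes), 5 of them with no overlap between the groups (16.9%), and none at an unadjusted p under 0.05 with a higher level (3.08%). The median log2 fold change was 0.16 over the 8 genes and -0.051 over all tested genes. The largest values were those of Slc1a4 (0.55, adjusted p = 0.681), Slc7a5 (0.37, adjusted p = 0.624) and Slc3a2 (0.32, adjusted p = 0.590). Single libraries changed the size of the first pair, which stayed above 0. Without the TALL2 library on 0.4 g/kg the value was 0.36 for Slc1a4 and 0.22 for Slc7a5, and without the TALL3 library it was 0.73 and 0.53. The other log2 fold changes on 0.4 g/kg were 0.20 for Slc7a1, 0.11 for Slc1a5, 0.087 for Slc38a1, 0.070 for Slc7a6 and 0.030 for Slc38a2. On 0.8 g/kg the means were again above the control for all 8 (40% of all tested genes), but only Slc1a5 and Slc1a4 did not overlap with it (10.6%) and none was higher at an unadjusted p under 0.05 (1.15%). The median was 0.14, against -0.041 over all tested genes. Slc1a4 had the largest value there (0.74, adjusted p = 0.998), but it was 0.16 without the TALL3 library on 0.8 g/kg, when Slc38a1 was higher at 0.25, and 1.33 without the TALL2 library. The other values were 0.25 for Slc7a1, 0.16 for Slc3a2, 0.15 for Slc7a5, 0.13 for Slc38a1, 0.050 for Slc1a5, 0.047 for Slc7a6 and 0.013 for Slc38a2. In limma 0 of 9943 genes passed in either comparison (0%), with 1059 genes (10.7%) at an unadjusted p under 0.05 on 0.4 g/kg and 433 (4.35%) on 0.8 g/kg, and voom called 0 in both. The 3 comparisons share the control libraries, so their values are not independent of each other. Without the TALL3 library on 0.8 g/kg, 5 of the 8 genes were above the control in that diet, and Slc7a5 (-0.21), Slc3a2 (-0.062) and Slc38a2 (-0.044) were below it.

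Over the diets ranked by falling valine, the slope per step was above 0 for all 8 genes (46.7% of all tested genes), and for 5 of them with an unadjusted p under 0.05 (5.9%). The median log2 change per step was 0.15 over the 8 and -0.0062 over all tested genes. The slope was 0.34 for Slc1a4 (SE 0.129, adjusted p = 0.356), 0.22 for Slc3a2 (SE 0.0539, unadjusted p = 0.00293, adjusted p = 0.234 in limma), 0.21 for Slc7a5 (SE 0.0653, adjusted p = 0.292) and 0.14 for Slc1a5 (SE 0.0312, adjusted p = 0.226). It was 0.15 for Slc38a2 and 0.12 for Slc7a1, which were 0.061 and 0.043 without the TALL3 library on 0 g/kg, and 0.018 for Slc38a1 and 0.017 for Slc7a6. No gene passed the slope test (0 of 9943, 0%, with 1220, or 12.3%, at an unadjusted p under 0.05 in limma), nor an F test that asks whether any diet differs (0%, with 627, or 6.31%), and voom called 0 in both. The F statistic was 12.7 for Slc1a5 (adjusted p = 0.672), 5.03 for Slc3a2 (adjusted p = 0.756), 3.14 for Slc38a2, 2.79 for Slc1a4, 2.69 for Slc7a5, 1.05 for Slc7a1, 0.284 for Slc7a6 and 0.264 for Slc38a1.

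Taken within the libraries of one name, the difference between 0 and 8 g/kg was above 0 for all 8 genes in TALL2 and in TALL3. On the log2(FPKM + 1) scale it was 0.55 in TALL2 and 0.72 in TALL3 for Slc7a5, 0.44 and 0.94 for Slc3a2, and 0.38 and 0.49 for Slc1a5. For Slc7a1 it was 0.12 in TALL2 and 0.68 in TALL3. The intermediate diets differed between the names. On 0.8 g/kg Slc7a5 was below the control in TALL2 (-0.24) and above it in TALL3 (0.55), and Slc3a2 likewise (-0.11 and 0.43). On 0.4 g/kg Slc7a5 was above the control by 0.50 in TALL2 and 0.25 in TALL3. These are single libraries, and the difference between the names was not tested.

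**Figure D2:**
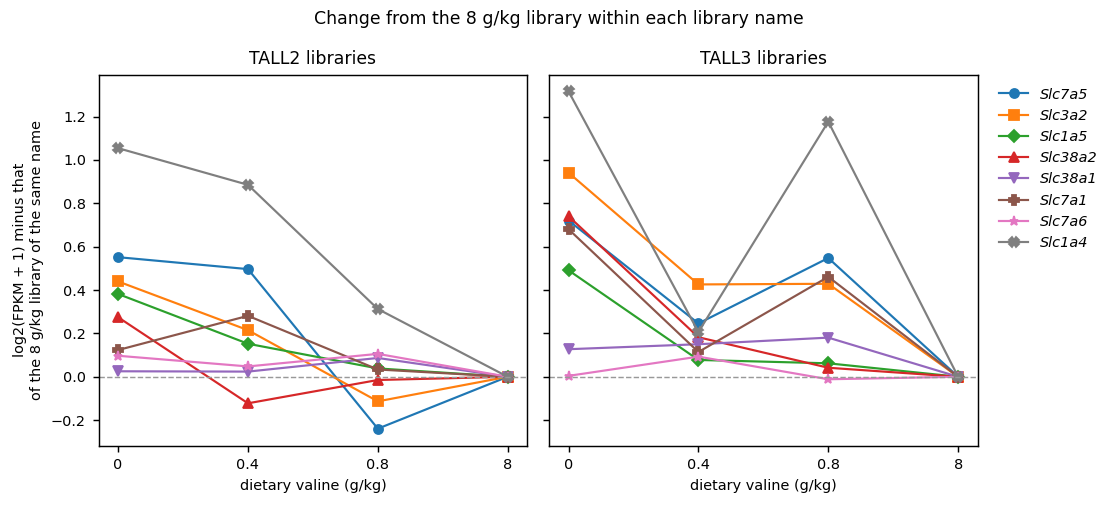
Difference of each transporter from the 8 g/kg library of the same name, on the log2(FPKM + 1) scale, over the ranked diets (0, 0.4, 0.8 and 8 g/kg) for the TALL2 libraries (left) and the TALL3 libraries (right), with 1 line per gene. In TALL3 Slc7a5 is at 0.25 on 0.4 g/kg and at 0.55 on 0.8 g/kg, and in TALL2 it is at 0.50 on 0.4 g/kg and at -0.24 on 0.8 g/kg.

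Genes of amino acid shortage and MYC were measured in the same libraries. Asns, which makes asparagine and is a classical ATF4 target, had 69.2 and 84.6 FPKM on 0 g/kg, 47.3 and 17.1 on 0.4 g/kg, 5.58 and 47.5 on 0.8 g/kg, and 2.02 and 2.90 on 8 g/kg. The 4 libraries with the highest Asns were also the 4 with the highest Slc7a5, and the 4 with the highest Slc1a4. This did not hold for any other of the 8 transporters. On 0.4 g/kg, for example, Slc3a2 had 76.8 FPKM in TALL2 and 82.9 in TALL3. How many of all tested genes were highest in the same 4 libraries was not counted. Whether Asns and the transporters move together was not tested. Atf4 mRNA itself averaged 99.3 ± 36.4 FPKM on 0 g/kg and 78.2 ± 2.91 FPKM on 8 g/kg (SD, n = 2 each). Ddit3, which encodes the stress factor CHOP, averaged 18.6 ± 6.86 and 9.64 ± 0.635 FPKM in the same diets. Neither had its 4 highest values in the 4 libraries where Asns was highest. On 0.4 g/kg Atf4 had 62.5 and 86.2 FPKM, and Ddit3 had 8.11 and 11.5 FPKM. Myc had 161 and 112 FPKM on 0 g/kg, 178 and 156 on 0.4 g/kg, 185 and 202 on 0.8 g/kg, and 267 and 222 on 8 g/kg, so that both valine-free libraries lay below both controls (log2 fold change -0.86, adjusted p = 0.358). Asns was chosen for naming after its values were seen.

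The start regions of the transporter genes were read for the DNA words of these factors. RefSeq promoter windows (GRCm38.p6, 250 bases before to 50 after a gene's start) were given for 5 of the 8 genes: Slc3a2, Slc38a2, Slc7a1, Slc7a6 and Slc1a4. The words searched on both strands were TGATGNAA, a form of the amino acid response element that ATF4 binds with C/EBP partners, and CACGTG, the E-box that MYC binds; they do not overlap. Of 32851 windows of this length in the table, 3.97% held the first word and 7.15% the second. Slc1a4 held 1 match to TGATGNAA, on the strand opposite to the gene, from 4 bases before the start to the fourth base of the transcript, and the windows of the other 4 genes held neither word. A match is a description of the letters and not of binding. The windows of the 3 genes with the largest relative differences on 0 g/kg among those 5 are shown 5′ to 3′ on the strand of the gene, with the match in capitals. The window of Slc1a4 is chr11:20332664-20332963, that of Slc3a2 is chr19:8713848-8714147, at a start that lies inside the gene as GENCODE draws it, and that of Slc38a2 is chr15:96699679-96699978, all on the minus strand.
Slc1a4: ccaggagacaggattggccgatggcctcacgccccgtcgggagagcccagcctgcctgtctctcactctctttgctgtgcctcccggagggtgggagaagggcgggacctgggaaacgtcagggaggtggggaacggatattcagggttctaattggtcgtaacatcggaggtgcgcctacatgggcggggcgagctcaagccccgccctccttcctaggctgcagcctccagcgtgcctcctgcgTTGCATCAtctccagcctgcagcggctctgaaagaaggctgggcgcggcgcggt
Slc3a2: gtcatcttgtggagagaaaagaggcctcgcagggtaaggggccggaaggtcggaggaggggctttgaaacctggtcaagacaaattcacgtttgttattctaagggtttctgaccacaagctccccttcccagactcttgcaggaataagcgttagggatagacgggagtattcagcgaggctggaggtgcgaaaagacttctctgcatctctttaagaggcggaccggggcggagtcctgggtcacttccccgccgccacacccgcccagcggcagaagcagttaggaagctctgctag
Slc38a2: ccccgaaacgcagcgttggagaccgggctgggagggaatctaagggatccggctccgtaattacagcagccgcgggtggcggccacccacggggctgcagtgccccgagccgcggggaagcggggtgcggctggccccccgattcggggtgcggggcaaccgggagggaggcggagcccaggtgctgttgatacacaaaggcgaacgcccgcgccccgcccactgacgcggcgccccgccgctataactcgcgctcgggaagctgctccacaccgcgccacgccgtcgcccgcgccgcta
The base composition of these windows differed, with 65% G and C in Slc1a4, 56% in Slc3a2 and 73% in Slc38a2.

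The other amino acid transporters showed how far the pattern reached. Of 45 further symbols (older and newer names of a gene counted apart), 14 were listed in the mouse table and all 14 were tested. On 0 g/kg none passed the test, 8 were above the control (47.8% of all tested genes), 5 of them with no overlap (19.1%), and 3 lay below it with no overlap, and the median log2 fold change was 0.059. The largest differences were those of carriers that were low on the control diet. Slc7a3, which encodes the cationic amino acid carrier CAT3, had 6.02 and 8.07 FPKM on 0 g/kg (316 and 317 reads), 2.58 and 0.865 on 0.4 g/kg, 0.200 and 2.39 on 0.8 g/kg, and 0.0169 and 0.0444 on 8 g/kg, where it rested on 1 and 2 reads. Every restricted library was above both controls. The log2 fold change on 0 g/kg was 2.95 on the log2(FPKM + 1) scale (SE 0.543, adjusted p = 0.231), a value that depends on the pseudocount.

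Slc6a9 encodes GLYT1, a glycine carrier. It had 11.8 and 8.09 FPKM on 0 g/kg, 7.99 and 2.29 on 0.4 g/kg, 1.98 and 5.66 on 0.8 g/kg, and 1.69 and 1.60 on 8 g/kg, and the TALL2 library on 0.4 g/kg and the TALL3 library on 0.8 g/kg were again the higher ones of their diets (log2 fold change 2.03 on 0 g/kg, SE 0.561, adjusted p = 0.380). Slc16a10, which encodes the aromatic amino acid carrier TAT1, averaged 36.0 ± 8.03 FPKM on 0 g/kg and 27.9 ± 1.52 FPKM on 8 g/kg (SD, n = 2 each). Slc43a1 and Slc43a2 encode LAT3 and LAT4, sodium-independent carriers of large neutral amino acids that work without the heavy chain. Slc43a2 had 8.95 and 12.3 FPKM on 0 g/kg, 9.56 and 15.2 on 0.4 g/kg, 17.5 and 7.70 on 0.8 g/kg, and 9.54 and 9.06 on 8 g/kg. Slc43a1 had 34.8 and 33.3 FPKM on 0 g/kg, 37.8 and 49.7 on 0.4 g/kg, 54.7 and 32.2 on 0.8 g/kg, and 36.7 and 35.9 on 8 g/kg. In both genes the TALL3 library was the higher on 0.4 g/kg and the TALL2 library on 0.8 g/kg, the reverse of the order seen in Slc7a5 and Slc6a9. On 0 g/kg both libraries of Slc43a1 lay below both controls (log2 fold change -0.089, adjusted p = 0.927), and Slc43a2 overlapped them. Against the control the log2 fold change of Slc43a2 was 0.34 on 0.4 g/kg (adjusted p = 0.792) and 0.30 on 0.8 g/kg (adjusted p = 0.998).

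**Figure D3:**
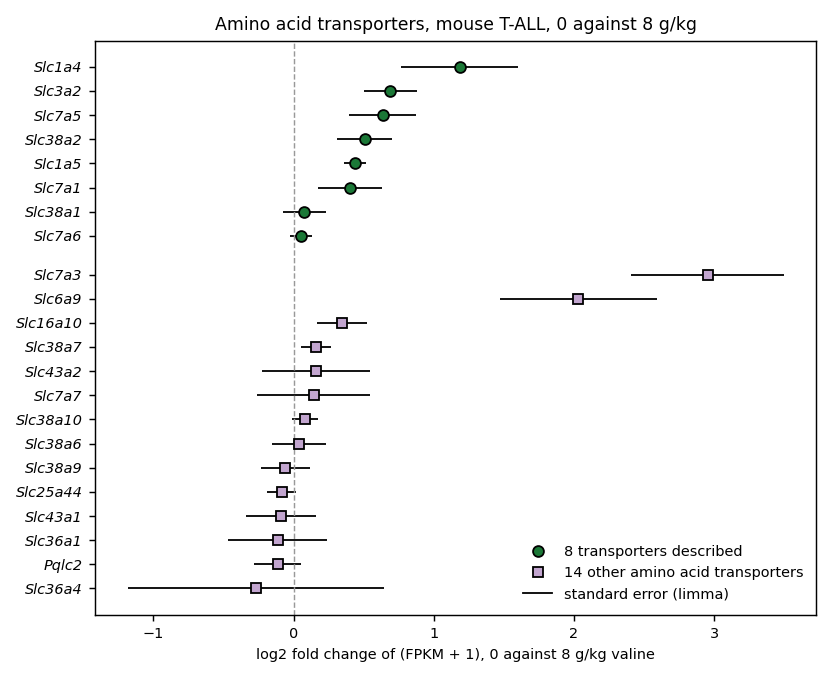
Log2 fold change of (FPKM + 1) at 0 against 8 g/kg valine for the 8 transporters (circles) and 14 other amino acid transporters (squares), with the standard error from limma. The 8 lie between 0.051 (Slc7a6) and 1.19 (Slc1a4), and among the others Slc7a3 (2.95) and Slc6a9 (2.03) lie far to the right; none has an adjusted p under 0.05.

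By level, the transporters were among the more abundant mRNAs of these cells, apart from Slc1a4. Averaged over the 8 mouse libraries Slc7a5 was at 115 FPKM, rank 457 of 10430 listed genes, followed by Slc1a5 (98.2 FPKM), Slc38a1 (91.4), Slc3a2 (80.0), Slc38a2 (61.3), Slc7a1 (45.7) and Slc7a6 (41.2). Slc1a4 was at 3.82 FPKM, rank 8408. The mean of Slc7a5 was above that of Slc38a1 in all 4 diets, with both libraries of Slc7a5 the higher on 0 g/kg, whereas on 8 g/kg Slc7a5 was at 93.4 and 89.7 FPKM and Slc38a1 at 96.5 and 77.3 FPKM, which overlap.

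The genes most like Slc7a5 and Slc1a5 over the 8 mouse libraries were found by Pearson correlation of log2(FPKM + 1) among 9943 genes, as a description with no test; all points share their library's depth and cell makeup. For Slc7a5 they were Clic4 (r = 0.98), Shmt2 (0.97), which makes glycine from serine in mitochondria, Gars (0.96), the glycyl-tRNA synthetase, Ndufaf2 (0.96) and Mcm10 (0.96). For Slc1a5 they were Slfn2 (r = 0.98), Stc2 (0.97), Slpi (0.97), Pepd (0.96) and Stfa2l1 (0.95). Slpi was at 4.84 and 12.1 FPKM and Stfa2l1 at 3.88 and 4.18 FPKM on 0 g/kg, against 0.0524 and 0.138 FPKM (Slpi) and 0 and 0.146 FPKM (Stfa2l1) on 8 g/kg.

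In KOPTK1 cells the inhibitor was compared with DMSO, to see how the same transporters stood when NOTCH1 release was blocked. The heavy chain SLC3A2, the glutamine carrier SLC1A5 and the carrier SLC38A2 rose with the inhibitor, to 1.51, 1.44 and 1.22 times the DMSO level in FPKM + 1. SLC38A1 and the arginine carrier SLC7A1 fell, both to 0.85 times the DMSO level. SLC7A5, SLC7A6 and SLC1A4 did not pass the test. Thus 5 of the 8 were called, 3 up and 2 down, in a comparison that called 53.1% of all 6679 tested genes (22.8% up and 30.3% down), a share near that of the 8. In 4 of the 8 both gSI libraries lay above both DMSO libraries (33.9% of all tested genes), and in 3 they lay below (42.4%). In the human table FPKM were divided by long gene lengths (13711 to 86954 bp recovered for these genes, against 2807 to 7266 bp in mouse), so human levels are not compared between genes.

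SLC3A2 (ENSG00000168003) had 13.4 and 13.8 FPKM with gSI, against 8.48 and 8.89 FPKM with DMSO. The log2 fold change was 0.59 (SE 0.0785, adjusted p = 4.94e-07 in limma). SLC1A5 (ENSG00000105281) had 29.4 and 30.7 FPKM with gSI, against 20.3 and 20.7 FPKM with DMSO (log2 fold change 0.53, SE 0.0811, adjusted p = 4.5e-06). In both genes the groups were well apart and replicates close together, and both stayed called under every alternative and without each library in turn.

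SLC7A5 (ENSG00000103257), the light chain that pairs with SLC3A2, was not called, and whether its difference is smaller than that of SLC3A2 was not tested. It had 15.4 and 15.5 FPKM with gSI and 13.6 and 13.99 FPKM with DMSO. The groups did not overlap, but the difference of 0.15 (SE 0.0790, 95% interval -0.011 to 0.31, adjusted p = 0.109) did not pass in limma on FPKM, while the test of recovered reads by voom gave 0.20, which passed (adjusted p = 0.000982), as it did with quantile scaling (0.28, adjusted p = 0.00964). Human pseudogenes with near-identical sequence to SLC7A5 exist, and how the counting treated reads shared with them is not given, so this value is uncertain.

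SLC38A2 (ENSG00000134294) had 100.4 and 98.9 FPKM with gSI and 86.2 and 76.5 FPKM with DMSO (log2 fold change 0.29, SE 0.0870, adjusted p = 0.00611); without DMSO replicate 2 it was 0.21 and not called (adjusted p = 0.106). SLC38A1 (ENSG00000111371) had 11.01 and 10.2 FPKM with gSI and 13.1 and 12.2 FPKM with DMSO (log2 fold change -0.23, SE 0.0805, adjusted p = 0.0160). Its call ended with quantile scaling (-0.14, adjusted p = 0.112) and without DMSO replicate 1 (adjusted p = 0.0962), gSI replicate 1 (0.0555) or gSI replicate 2 (0.256). SLC7A1 (ENSG00000139514) had 5.06 and 5.14 FPKM with gSI and 6.22 and 6.14 FPKM with DMSO (log2 fold change -0.24, SE 0.0753, adjusted p = 0.00993), and its call ended without gSI replicate 1 (adjusted p = 0.135) or 2 (0.108).

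SLC1A4 (ENSG00000115902) had 5.95 and 6.11 FPKM with gSI and 6.79 and 6.65 FPKM with DMSO (log2 fold change -0.13, 95% interval -0.29 to 0.021, adjusted p = 0.137). SLC7A6 (ENSG00000103064) had 2.17 and 2.28 FPKM with gSI and 2.32 and 2.09 FPKM with DMSO, which overlap (log2 fold change 0.0078, 95% interval -0.14 to 0.15, adjusted p = 0.933).

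**Figure D4:**
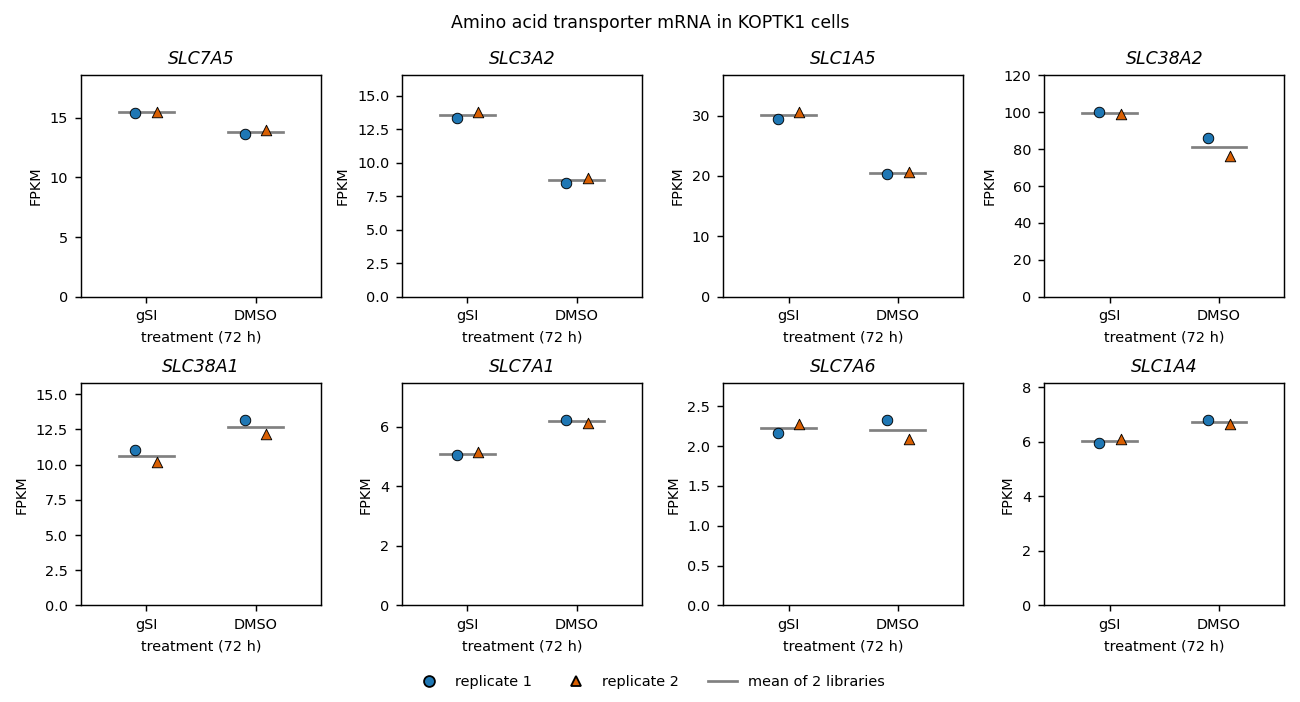
FPKM of the 8 transporters in KOPTK1 cells after 72 h with gSI or DMSO, with circles for replicate 1, triangles for replicate 2 and a bar at the mean of 2 libraries. SLC3A2 (13.4 and 13.8 against 8.48 and 8.89 FPKM) and SLC1A5 (29.4 and 30.7 against 20.3 and 20.7 FPKM) are higher with gSI, and SLC7A1 and SLC38A1 are lower.

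In the same libraries MYC had 4.75 and 4.75 FPKM with gSI and 17.2 and 16.1 FPKM with DMSO, and DDIT3 rose to 21.8 and 22.9 FPKM with gSI, against 13.4 and 13.7 FPKM with DMSO (in limma, adjusted p = 5.79e-16 for MYC, which fell, and 7.25e-08 for DDIT3). ATF4 did not pass, with 83.4 and 92.4 FPKM with gSI and 98.2 and 92.3 FPKM with DMSO, and neither did ASNS, with 3.48 and 3.22 FPKM with gSI and 3.31 and 3.07 FPKM with DMSO (adjusted p = 0.574). Of the 15 tested genes of the amino acid and stress response list, 6 rose and 5 fell (22.8% and 30.3% of all tested genes), the ones that fell being DDIT4, EIF4EBP1, PSAT1, PHGDH and CEBPG. All 9 tested T-lineage markers fell, and the 10 listed summed to 206 to 220 FPKM with gSI and to 358 to 376 FPKM with DMSO. CD4, listed but too low to be tested, had 0.715 and 0.788 FPKM with gSI and 0.625 and 0.501 FPKM with DMSO. The part of the T-lineage change in the transporter values was not tested. Of the other amino acid transporters 16 were listed and 4 tested, of which 3 rose in limma (22.8% of all tested genes rose and 53.1% were called). SLC7A11, the light chain of the cystine and glutamate exchanger that also binds the heavy chain SLC3A2, had 2.55 and 2.39 FPKM with gSI and 1.38 and 1.26 FPKM with DMSO (log2 fold change 0.58, SE 0.0662). SLC38A10 had 1.74 and 1.81 FPKM with gSI and 0.884 and 0.887 FPKM with DMSO (log2 fold change 0.56), and SLC25A44, known as a mitochondrial carrier of branched-chain amino acids, had 4.58 and 5.04 FPKM with gSI and 3.00 and 2.94 FPKM with DMSO (log2 fold change 0.55). SLC7A3, the fourth, did not pass (1.83 and 2.02 FPKM with gSI, 1.81 and 1.89 FPKM with DMSO).

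**Figure D5:**
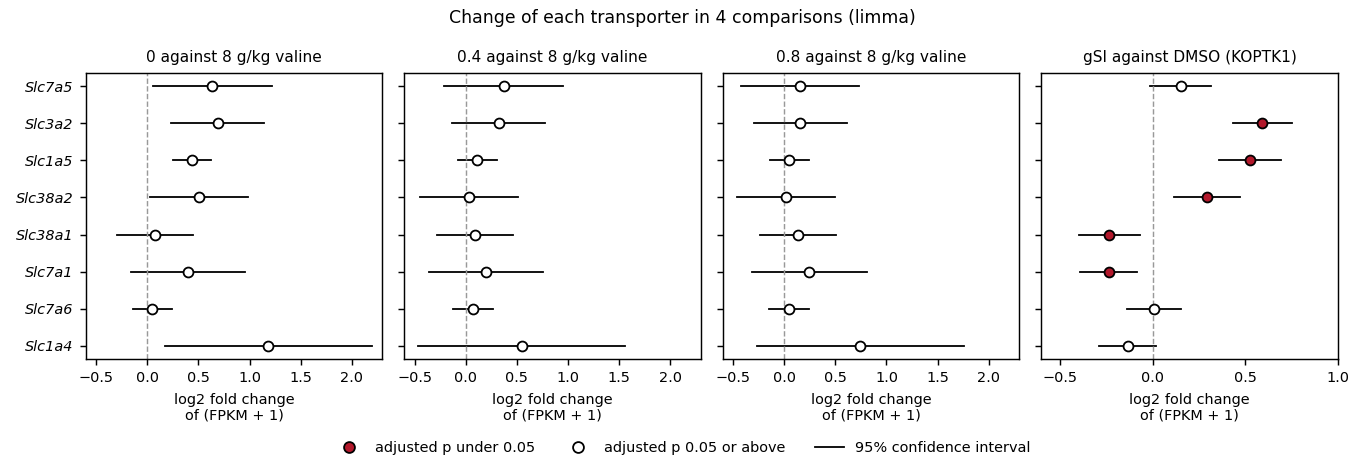
Log2 fold change of (FPKM + 1) with its 95% confidence interval from limma for each transporter (mouse spelling; human genes in the right panel), at 0, 0.4 and 0.8 against 8 g/kg valine and with gSI against DMSO; filled points have an adjusted p under 0.05. All mouse points are open and above 0, and 5 of the 8 human points are filled, SLC3A2, SLC1A5 and SLC38A2 above 0 and SLC38A1 and SLC7A1 below 0.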

How the data were processed

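The deposited values were FPKM, which the authors gave for each gene and library in a mouse and a human table. The submitters' processing notes name the tools STAR and edgeR, with no version or role, and hg19 and mm10 as builds. Per the labels' protocols the library kit keeps strand. Neither the counting tool nor the gene model is named in the sources used here. Each table was fitted alone, since they were normalised apart. Mouse coordinates are those of GENCODE M21 on GRCm38, the assembly that mm10 names.

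Read numbers were recovered as the smallest whole numbers in the ratios of FPKM between libraries (relative tolerance 1e-12). The lengths this gave were whole within 0.01 bp for 99.9% of mouse and 95.8% of human genes, and the reads of 13 mouse and 489 human genes were then multiplied, so the read numbers are estimates.

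The log2(FPKM + 1) values of genes averaging 1 FPKM or more were tested with limma 3.58.1 (R 4.3.3; variance trend on the mean; two-sided), adjusted by Benjamini-Hochberg over all tested genes, at a threshold of 0.05. The 4 diets shared 1 estimate of the spread. Nothing in the labels says that libraries of a group came from separate animals or cultures, so p-values reflect the spread between libraries and that spread may be technical. With 2 libraries against 2, an exact two-sided permutation test of a single gene cannot go below p = 0.333. The fits and the recovery were tested on simulated data. With changes of 1.5 and 2 times set in, the fit of 0 against 8 g/kg called 19.4% and 50.7% of them. The KOPTK1 fit called 88.1% and 94.0%. A mouse transporter that did not pass may therefore still differ by such an amount where its 95% interval reaches it. On 0 g/kg the intervals of Slc7a6 (-0.14 to 0.24) and Slc38a1 (-0.29 to 0.45), on the log2 scale, did not reach a change of 1.5 times.

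The transporters and lists were chosen with earlier results of these data known. By the naming rule all 8 genes are given in every comparison, and other transporters where they passed, at most 5 per direction, or else as the 3 largest differences where the higher group averaged 5 FPKM or more, beside Atf4, Ddit3 and Myc. Alternatives covered the pseudocount, the filter, the scaling, the trend, voom on recovered reads with median-of-ratios library sizes, the replicate number as a block, fewer diets and each library left out.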

Additional observations from a re-analysis of the deposited data

How the results depend on the processing

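In mouse, 0 of the 8 transporters was called in the comparisons of 0, 0.4 or 0.8 with 8 g/kg, in the slope or in the F test under any alternative run. In KOPTK1, 3547 genes were called, 5374 with no filter and 1139 when only genes averaging 5 FPKM or more were tested, which changes how many genes enter. Leaving out each library gave 2226 to 3531 called genes and 3 to 4 called transporters in KOPTK1, 0 to 2 called genes for the slope and 5 to 8 transporters above 0 for 0.8 g/kg. Slc1a4 in mouse and SLC7A6 in KOPTK1 have no value under the 5 FPKM filter.

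Differences near 0 changed sign when single libraries were left out. Their ranges on the log2 scale were -0.045 to 0.060 for SLC7A6 with gSI. For Slc38a1 they were -0.082 to 0.23 on 0 g/kg, -0.071 to 0.25 on 0.4 g/kg, -0.025 to 0.29 on 0.8 g/kg and -0.029 to 0.049 for the slope. For Slc38a2 they were -0.15 to 0.21 on 0.4 g/kg and -0.044 to 0.070 on 0.8 g/kg, and on 0.8 g/kg they were -0.21 to 0.52 for Slc7a5 and -0.062 to 0.38 for Slc3a2. The cause was not tested.

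The replicate number as a block gave 3705 called genes and 5 called transporters in KOPTK1 and 0 of both in every mouse comparison, so it changed no call. The main fit did not take the numbers as pairs, so any spread shared by libraries of one number stayed in its error. Deviations from group means correlated across genes at 0.258 between gSI and DMSO. In mouse they correlated at 0.363 to 0.743 between the diets other than 0.4 g/kg, with 0.566 between 0 and 8 g/kg. The 0.4 g/kg libraries gave 0.425 with 0 g/kg, 0.0588 with 8 g/kg and -0.174 with 0.8 g/kg.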

Other observations

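Slc36a4, which encodes an amino acid carrier of the proton-assisted family, differed more between library names than between diets. The TALL2 library had 1.95, 4.32, 2.35 and 2.73 FPKM on 0, 0.4, 0.8 and 8 g/kg, and the TALL3 library had 7.42, 0.324, 7.55 and 8.67 FPKM in the same diets. TALL3 was thus the higher in the diets other than 0.4 g/kg, where it was the lower. The 0.324 FPKM of the TALL3 library on 0.4 g/kg rested on 37 reads. Slc38a1 kept its order between the names in all 4 diets, 0.4 g/kg included. What sets the 0.4 g/kg libraries apart was not tested.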
